A study of Rattus norvegicus with 6 samples.

Results

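The 5 genes described here encode proteins that move the G protein transducin, or control its movement, in photoreceptors: Klhl18, Cul3, Unc119, Pde6d and Pdc. They were chosen by gene symbol out of 28358 genes in the tables, with the difference of Klhl18 between the groups already known, so their levels and differences in this contrast are given as a description and not tested. All 5 were among the 13242 genes kept for the comparison. The RNA came from neuroretinas of GK (Goto-Kakizaki) rats, males aged 14 months, a lean strain with inherited type 2 diabetes. In the first group, 3 samples had been taken 2 months after an injection into the vitreous of 5 µL of microspheres of the degradable polymer PLGA that held 6.2 µg of spironolactone, a blocker of the mineralocorticoid receptor. In the second group, 3 samples had received the same volume of non-loaded microspheres, and no retina without microspheres was analysed here. The labels do not say whether the samples of a group are separate animals, so errors and p-values measure the spread between samples, nor do the sources used here give the lighting before dissection.

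In a rod kept in darkness, transducin sits in the outer segment, the light-sensing compartment. Bright light drives its alpha and beta-gamma subunits into the inner segment and towards the synapse, and darkness brings them back. Both carry lipid anchors, and soluble proteins that bind the anchor or cover the membrane-facing surface are needed to move them: UNC119 binds the acylated alpha subunit, phosducin (Pdc) binds beta-gamma, and PDE6D binds prenylated proteins. In mouse rods, KLHL18 brings UNC119 to the ubiquitin ligase scaffold CUL3, and loss of Klhl18 leaves the rod alpha subunit largely out of the outer segment in the dark.

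The RefSeq promoter table (GRCr8) held windows for Klhl18, Unc119 and Pdc. They are shown so that the starts of the adaptor gene, the gene of its substrate and the gene of the beta-gamma binder can be set side by side. Each line gives the 250 bases that end just before the start of the gene, 5′ to 3′ on the strand of the gene. Capitals mark CCGGAA, the core of sites of ETS factors, and GGGCGG, the core of the GC box, each on either strand. The 2 motifs did not overlap each other.
Klhl18: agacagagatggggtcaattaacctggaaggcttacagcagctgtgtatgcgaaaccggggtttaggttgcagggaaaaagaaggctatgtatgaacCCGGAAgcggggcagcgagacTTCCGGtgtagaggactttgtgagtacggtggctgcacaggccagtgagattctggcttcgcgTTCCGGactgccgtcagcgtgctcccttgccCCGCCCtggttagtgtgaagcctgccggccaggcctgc
Unc119: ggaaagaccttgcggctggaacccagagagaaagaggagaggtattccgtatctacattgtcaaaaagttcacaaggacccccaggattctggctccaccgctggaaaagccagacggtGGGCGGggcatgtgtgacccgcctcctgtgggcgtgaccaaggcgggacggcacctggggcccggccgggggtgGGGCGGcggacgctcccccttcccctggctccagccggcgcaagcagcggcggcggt
Pdc: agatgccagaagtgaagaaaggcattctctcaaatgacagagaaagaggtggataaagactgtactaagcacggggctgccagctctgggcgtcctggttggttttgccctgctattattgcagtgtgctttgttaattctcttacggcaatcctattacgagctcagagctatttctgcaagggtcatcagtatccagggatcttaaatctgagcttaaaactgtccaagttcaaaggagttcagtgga
The Klhl18 window (chr8:119337720-119337969, minus strand) held CCGGAA at positions −153, −132 and −69 and GGGCGG at −38, counted from −1 at the last base before the start. The Unc119 window (chr10:63735749-63735998, plus strand) held GGGCGG at −131 and −57. The Pdc window (chr13:64908057-64908306, plus strand) held neither motif. Of 33469 windows of this length in the table, 12.6% held CCGGAA and 30.5% held GGGCGG. The GC content was 58.4% for Klhl18, 66.4% for Unc119 and 45.2% for Pdc, beside a median of 51.2% over all windows. TAATCC, the core bound by the photoreceptor factor CRX, and CACGTG, the E-box of clock factors, were in none of the 3 windows, beside 6.34% and 5.59% of all windows. The motifs were picked with the sequences in view.

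The libraries held between 9996198 and 12589467 expected counts, the estimated reads per gene. The all-gene comparison (edgeR quasi-likelihood test, Benjamini-Hochberg adjusted p under 0.05) called 348 of 13242 genes, 2.63%, of which 247 (1.87%) were higher and 101 (0.763%) lower in the spironolactone group, with a median log2 fold change of −0.00267. At an unadjusted p under 0.05 edgeR gave 15.8% of all tested genes, and DESeq2 called 3.19%, the shares to set beside such counts for the lists. The lists were chosen with earlier results of these data known, which limits what their counts and p-values can show. By title, the spironolactone samples are numbered 8, 10 and 11 and the non-loaded samples 2, 3 and 4. What the numbers stand for is not given in the sources used here, and an order in sampling or handling cannot be told apart from the treatment. Rod markers summed to between 59300 and 65410 TPM, the transcript abundance corrected for length and library size, in the spironolactone group, against 72760 to 85720 TPM in the non-loaded group. Of the 14 rod markers 7 were called lower, and none was at 0. The part of the rod markers in the results that follow was not tested, and in bulk tissue fewer rods and less RNA per rod cannot be told apart. Of 10 cone markers 0 were called by edgeR (2 at an unadjusted p under 0.05, and 1 called by DESeq2), of 7 pigment epithelium markers 0 (2 at an unadjusted p under 0.05), and of 8 bipolar and 8 Müller markers 0 each (0 at an unadjusted p under 0.05), with DESeq2 calling 0 in these last 3 lists. Cone, pigment epithelium and Müller sums overlapped between the groups, and the pigment epithelium sum, 88.36 to 248.9 TPM in the spironolactone group and 213.1 to 264.8 TPM in the non-loaded group, was lowest in spironolactone replicate 3. The bipolar sum was 1890 to 2014 TPM in the spironolactone group and 1779 to 1885 TPM in the non-loaded group.

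Klhl18 encodes the kelch adaptor that selects UNC119 for ubiquitination. Its normalised read count, in CPM (counts scaled to a common library size with factors from the trimmed mean of M values), was 185.9, 176.7 and 148.7 CPM in the spironolactone samples and 245.5, 239.8 and 227.0 CPM in the non-loaded samples. Every spironolactone sample lay under every non-loaded sample, and spironolactone replicate 3 was the lowest of the 6. The means were 170.4 ± 19.4 CPM in the spironolactone group and 237.4 ± 9.51 CPM in the non-loaded group (SD, n = 3 each), a log2 fold change of −0.48 ± 0.07 (SE). These values rest on 1646 to 2215 expected counts per spironolactone library and 2427 to 2760 per non-loaded library. Of the 5 genes, Klhl18 alone was called, as 1 lower gene, where 0.763% of all tested genes were called lower. The choice of Klhl18 used this contrast, so nothing is read from that count. Without spironolactone replicate 3 the log2 fold change was −0.39. With the title number as a covariate it was 0.08 ± 0.19 (SE), of the opposite sign, in a fit that called 0 genes in all (562 at an unadjusted p under 0.05).

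Cul3 encodes the scaffold that joins such adaptors to the RING protein RBX1. It had 285.5, 284.5 and 296.9 CPM in the spironolactone samples and 240.7, 266.1 and 250 CPM in the non-loaded samples. The groups did not overlap, and the difference ran opposite to that of Klhl18. Its means were 289.0 ± 6.88 CPM in the spironolactone group and 252.3 ± 12.9 CPM in the non-loaded group (SD, n = 3 each), with a log2 fold change of 0.20 ± 0.06 (SE). Cul3 was not called by edgeR and was called by DESeq2.

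Cul3 was also the only one of the 5 genes with more than 1 transcript in the tables. The length of a Cul3 transcript, weighted by the abundance of its 3 transcripts, was 3096, 2983 and 2905 bases in the spironolactone samples and 3107, 3018 and 3081 bases in the non-loaded samples. The groups overlapped, and the lowest value was again that of spironolactone replicate 3. The effective length, which discounts the positions where a fragment cannot start, was 2835.7 ± 94.4 bases in the spironolactone group and 2907.2 ± 46.4 bases in the non-loaded group (SD, n = 3 each). The difference of −71.49 bases was within the spread between replicates (exact permutation test, two-sided, p = 0.3, where 3 against 3 samples cannot go below 0.1).

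Unc119 encodes the carrier of the transducin alpha subunit, the protein that the ligase acts on. It had 1299, 1259 and 1161 CPM in the spironolactone samples and 1333, 1327 and 1262 CPM in the non-loaded samples. The groups overlapped, since the highest spironolactone sample exceeded the lowest non-loaded sample. The means were 1240 ± 70.9 CPM in the spironolactone group and 1307 ± 39.2 CPM in the non-loaded group (SD, n = 3 each), and the log2 fold change was −0.08 ± 0.06 (SE).

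Pde6d encodes the carrier of prenylated proteins, first described as a subunit of the rod phosphodiesterase. It had 108.2, 105.4 and 112.1 CPM in the spironolactone samples and 97.63, 100.8 and 101.4 CPM in the non-loaded samples. Each spironolactone sample was above each non-loaded sample. The means were 108.6 ± 3.35 CPM in the spironolactone group and 99.95 ± 2.03 CPM in the non-loaded group (SD, n = 3 each), a log2 fold change of 0.12 ± 0.06 (SE) that was not called.

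Pdc encodes phosducin, an abundant photoreceptor protein whose grip on beta-gamma is loosened by phosphorylation in the dark. It had 2297, 2553 and 2378 CPM in the spironolactone samples and 2438, 2583 and 2375 CPM in the non-loaded samples. The samples of both groups were interleaved. The means were 2410 ± 131 CPM in the spironolactone group and 2466 ± 107 CPM in the non-loaded group (SD, n = 3 each), a log2 fold change of −0.03 ± 0.06 (SE). Klhl18, Cul3 and Pde6d were thus the 3 of 5 genes whose groups did not overlap, where 20.9% of all tested genes did not, and nothing is read from that share either.

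**Figure D1:**
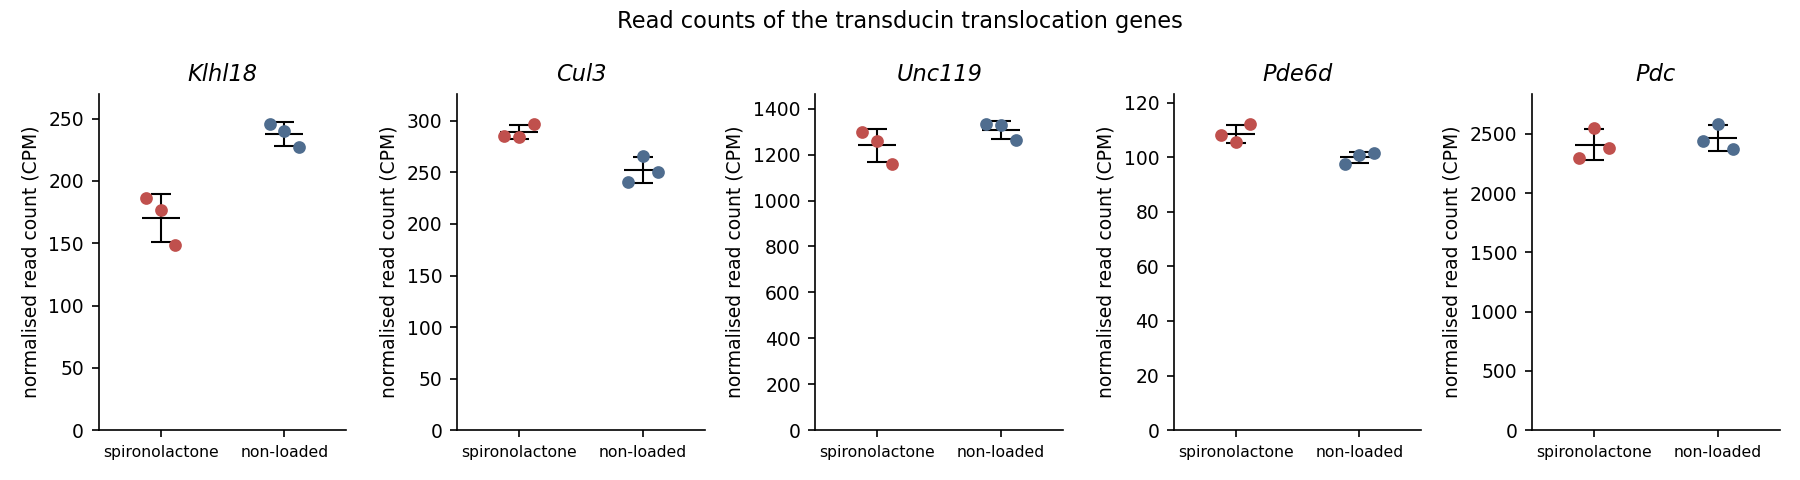
Normalised read counts (CPM, vertical axes from 0) of the 5 genes in each library, with the spironolactone samples (red) left of the non-loaded samples (blue); points are replicates 1 to 3 from left to right, and bars show the mean and SD. The Klhl18 points lie at 148.7 to 185.9 CPM in the spironolactone group and 227.0 to 245.5 CPM in the non-loaded group, while the Unc119 and Pdc points of the groups overlap.

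Levels of different genes were compared in TPM. Over all 6 libraries Pdc averaged 3981 TPM and Unc119 2066 TPM, places 16 and 25 among all genes of the tables. Klhl18 averaged 226.8 TPM, Pde6d 192.4 TPM and Cul3 171.6 TPM, places 586, 728 and 851. The carrier and the beta-gamma binder thus stood above the ligase genes and Pde6d in every library.

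Within a library, Pde6d was above Cul3 in all 6. Klhl18 was the highest of these 3 genes in spironolactone replicates 1 and 2 and in the 3 non-loaded libraries, and the lowest in spironolactone replicate 3. In the spironolactone group the ranges were 165 to 213 TPM for Klhl18, 192 to 207 TPM for Pde6d and 181 to 197 TPM for Cul3, and each overlapped the other 2. In the non-loaded group the ranges did not overlap, with 257 to 272 TPM for Klhl18, 179.5 to 191 TPM for Pde6d and 148 to 163 TPM for Cul3.

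Ratios of TPM within a library set the partners against each other without any scaling between libraries. The ratio of Unc119, the substrate, to Klhl18, its adaptor, was 10.2, 10.4 and 11.4 in the spironolactone samples and 7.92, 8.07 and 8.11 in the non-loaded samples. The 3 non-loaded samples lay close together (8.03 ± 0.102, SD, n = 3), and the spironolactone samples were all above them (10.7 ± 0.644, SD, n = 3). Cul3 to Klhl18 was 0.854, 0.933 and 1.19 in the spironolactone samples and 0.543, 0.634 and 0.616 in the non-loaded samples. The mean was 0.992 ± 0.175 in the spironolactone group, with samples on both sides of 1, and 0.597 ± 0.048 in the non-loaded group (SD, n = 3 each). CUL3 serves many adaptors, so this ratio in bulk tissue does not give the balance of scaffold and adaptor. Both ratios are made from the Klhl18 values that led to its choice, so nothing is read from the separation of the groups.

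For the transducin subunits against their binders the ratios ran the other way. Gnat1, the rod alpha subunit gene, to Unc119 was 2.39, 2.90 and 2.63 in the spironolactone samples and 4.75, 4.69 and 3.38 in the non-loaded samples. Gnb1, the rod beta subunit gene, to Pdc was 1.33, 1.12 and 1.09 in the spironolactone samples and 1.55, 1.54 and 1.43 in the non-loaded samples. Both ratios were lower in every spironolactone sample, and non-loaded replicate 3 was the lowest non-loaded sample in both. They largely restate the differences of Gnat1 and Gnb1, at log2 fold changes of −0.78 and −0.39. Those of Unc119 and Pdc were −0.08 and −0.03. Gnat1 to Klhl18 was 24.4, 30.1 and 30 in the spironolactone samples and 37.6, 37.9 and 27.4 in the non-loaded samples, and these overlapped.

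**Figure D2:**
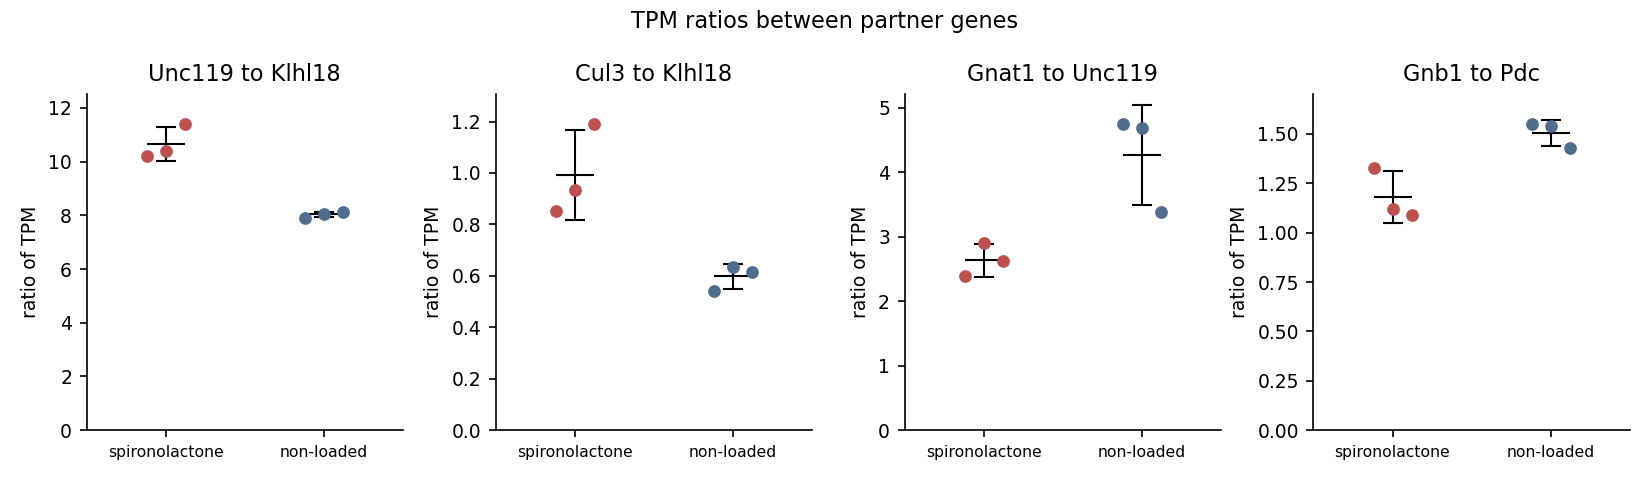
Ratio of TPM values (vertical axes from 0, no unit) between partner genes in each library, spironolactone (red) left of non-loaded (blue); points are replicates 1 to 3 from left to right, and bars show the mean and SD. Unc119 to Klhl18 is 10.2 to 11.4 in the spironolactone group against 7.92 to 8.11 in the non-loaded group, and Gnat1 to Unc119 is 2.39 to 2.90 against 3.38 to 4.75. The ratios to Klhl18 contain the values that led to its choice.

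The sum of all 14 rod markers, which was lower in every spironolactone sample than in any non-loaded sample, was also used as a scale. Per 1000 TPM of rod markers, Klhl18 had 3.31, 2.97 and 2.79 TPM in the spironolactone samples and 3.18, 3.07 and 3.54 TPM in the non-loaded samples. These groups overlapped, unlike the CPM of Klhl18. Unc119 had 33.8, 30.8 and 31.8 TPM per 1000 TPM of rod markers in the spironolactone samples and 25.1, 24.8 and 28.7 in the non-loaded samples. Pdc had 60.2, 62.9 and 65.5 TPM per 1000 in the spironolactone samples and 46.3, 48.6 and 54.3 in the non-loaded samples. Relative to the rod markers, Unc119 and Pdc were higher in every spironolactone sample than in any non-loaded sample. Klhl18 is not established as a rod marker, so this scale does not give its level per rod.

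The cargo is transducin itself, made of Gnat1, Gnb1 and Gngt1 in rods and Gnat2, Gnb3 and Gngt2 in cones. Of the 6 subunit genes 2 fell and none rose, where 0.763% of all tested genes were called lower and 1.87% higher, and all 6 had a negative log2 fold change, with a median of −0.275 beside −0.00267 over all tested genes. Gnat1 had 5570, 6541 and 5482 CPM in the spironolactone samples and 11360, 11180 and 7662 CPM in the non-loaded samples. Every spironolactone sample was under every non-loaded sample, and non-loaded replicate 3 stood well under the other non-loaded samples. Gnat1 fell by 0.78 ± 0.11 (SE) on the log2 scale (edgeR quasi-likelihood test, Benjamini-Hochberg adjusted p = 0.000705), and with robust shrinkage the adjusted p was 0.162. Gnb1 had 3701, 3468 and 3159 CPM in the spironolactone samples and 4595, 4821 and 4140 CPM in the non-loaded samples. The Gnb1 groups did not overlap, and it fell by 0.39 ± 0.07 (SE) on the log2 scale (edgeR, adjusted p = 0.00515, and 0.0631 without spironolactone replicate 2).

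The other 4 subunits did not pass the threshold. Gngt1, the rod gamma subunit gene, averaged 1765 ± 88.3 CPM in the spironolactone group and 1970 ± 144 CPM in the non-loaded group (SD, n = 3 each), with a log2 fold change of −0.16 ± 0.06 (SE, edgeR adjusted p = 0.232). Gngt2, the cone gamma subunit gene, had 17.36, 17.24 and 13.46 CPM in the spironolactone samples and 21.85, 23.38 and 20.89 CPM in the non-loaded samples. Its groups did not overlap, with a log2 fold change of −0.46 ± 0.12 (SE, edgeR adjusted p = 0.0512), and DESeq2 called it (adjusted p = 0.0352). Without spironolactone replicate 1 edgeR also called Gngt2 (adjusted p = 0.035). Gnat2, the cone alpha subunit gene, averaged 99.65 ± 6.65 CPM in the spironolactone group and 106.3 ± 3.51 CPM in the non-loaded group (SD, n = 3 each, edgeR adjusted p = 0.517). Gnb3, the cone beta subunit gene, averaged 209.4 ± 10.4 CPM in the spironolactone group and 223.8 ± 10.1 CPM in the non-loaded group (SD, n = 3 each, edgeR adjusted p = 0.473).

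**Figure D3:**
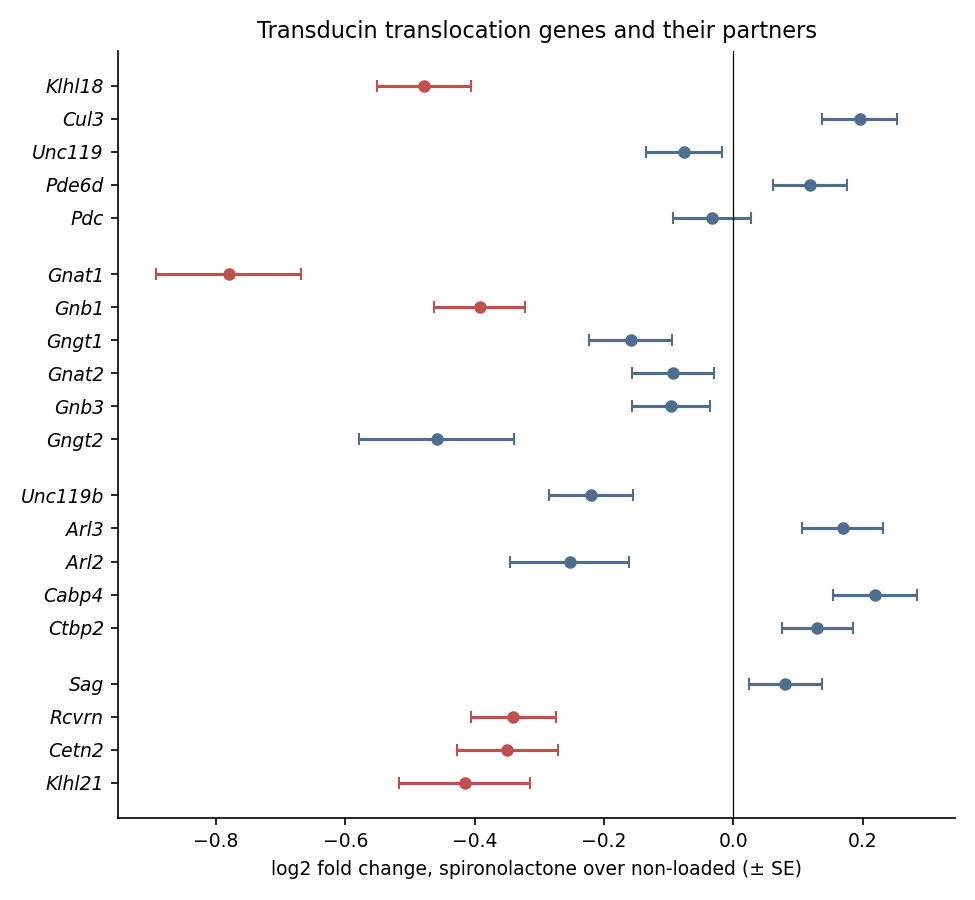
Log2 fold change (horizontal axis, spironolactone over non-loaded, bars ± SE) of the 5 described genes (top block), the 6 transducin subunits, carrier-related genes and UNC119 partners, and other light-moving proteins with Klhl21; red points passed an adjusted p of 0.05 over all tested genes and blue points did not. Klhl18 at −0.48 and Gnat1 at −0.78 lie to the left, Cul3 at 0.20 to the right, and Unc119 and Pdc near 0.

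CUL3 works with many adaptors that share a BTB domain, each for its own substrates. Of 58 such genes in the tables, Klhl18 included, Klhl18 had the second highest mean level over the 6 libraries, after Ivns1abp at 279.8 TPM. Its share of the summed TPM of these adaptors was 9.45%, 9.18% and 7.73% in the spironolactone samples and 12.5%, 11.9% and 11.4% in the non-loaded samples. The share did not overlap between the groups, and since it is made from the Klhl18 values that led to its choice, it restates them on another scale. Of 52 adaptors tested, Klhl18 had the lowest log2 fold change, and the other 51 ranged from −0.415 to 0.414 with a median of −0.0518. That Klhl18 lies at the end of this range follows in part from its choice and is given as a description.

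Apart from Klhl18, 1 of the 51 adaptor genes was called (1.96%), a share near the 2.63% of all tested genes. Klhl21, an adaptor known from mitosis in dividing cells, had 20.9, 19.55 and 18.43 CPM in the spironolactone samples and 24.58, 26.08 and 27.71 CPM in the non-loaded samples. Its groups did not overlap, and it fell by 0.42 ± 0.10 (SE) on the log2 scale (edgeR, adjusted p = 0.0362). That call ended on leaving out any library other than spironolactone replicate 1 (adjusted p = 0.155 and 0.145 without spironolactone replicates 2 and 3, and 0.069, 0.112 and 0.123 without non-loaded replicates 1, 2 and 3). Klhl11, Klhl29 and Kbtbd11 came next by p, at log2 fold changes of −0.20, 0.22 and −0.23 (edgeR adjusted p = 0.104, 0.107 and 0.128). With effective lengths as an offset Klhl29 had 0.48 (adjusted p = 0.00932), and on log2(TPM + 1) it had 0.49 (limma adjusted p = 0.125).

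**Figure D4:**
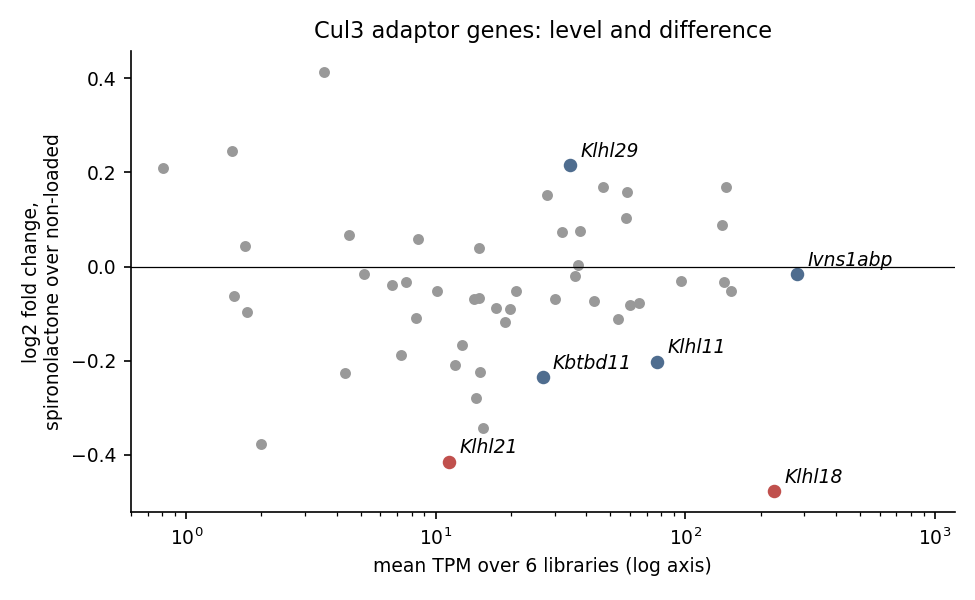
Mean TPM over the 6 libraries (horizontal log axis) and log2 fold change, spironolactone over non-loaded (vertical axis), of the 52 tested adaptor genes of Cul3; red points passed an adjusted p of 0.05 over all tested genes, blue points are other labelled genes and grey points the rest. Klhl18 is second in level at 226.8 TPM and lowest in log2 fold change at −0.48.

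The rest of the ligase machinery showed no called gene. Of 24 tested genes for the core and its control by NEDD8, the ubiquitin-like protein that activates cullins, 0 were called by edgeR (5 at an unadjusted p under 0.05, and 1 called by DESeq2), with a median log2 fold change of 0.0417. The smallest p belonged to Arih1, a ligase that works with neddylated cullins (0.20 ± 0.06, SE, edgeR adjusted p = 0.0988, called by DESeq2 at 0.0498, and 0.12 with effective lengths as an offset), Cops2, a subunit of the signalosome that removes NEDD8 (0.18 ± 0.06, adjusted p = 0.111), and Arih2, which pairs with CUL5 (0.19 ± 0.06, adjusted p = 0.131). Rbx1, the RING subunit that CUL3 binds, was named for its role and had a log2 fold change of 0.10 ± 0.11 (SE, edgeR adjusted p = 0.717), which turned to −0.02 without non-loaded replicate 1. Of the 6 other cullin genes 0 were called by edgeR or DESeq2 (2 at an unadjusted p under 0.05), with a median of 0.106. Cul4b (0.22 ± 0.07, SE, edgeR adjusted p = 0.114, and 0.0296 without spironolactone replicate 1), Cul1 (0.18 ± 0.06, adjusted p = 0.132) and Cul5 (0.13, adjusted p = 0.332) had the smallest p of them. The log2 fold change of Cul3, 0.20, thus lay beside those of Cul4b and Cul1 and above the median of these 6 genes. Of the 6, 4 had a positive log2 fold change and 2 a negative one, down to −0.0352.

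Carriers need a release factor. The small GTPase ARL3 frees cargo from UNC119 and PDE6D, ARL2 frees cargo of PDE6D, and UNC119B is the paralog of UNC119. Of 6 genes of this group 0 were called by edgeR or DESeq2 (4 at an unadjusted p under 0.05), with a median log2 fold change of 0.0509. Unc119b averaged 111.2 ± 7.13 CPM in the spironolactone group and 129.5 ± 7.11 CPM in the non-loaded group (SD, n = 3 each), with a log2 fold change of −0.22 ± 0.06 (SE, edgeR adjusted p = 0.0889, and 0.0263 without spironolactone replicate 1). Unc119 transcripts outnumbered those of Unc119b 25.3, 27.1 and 26.1 to 1 in the spironolactone samples and 22.5, 24.8 and 23.9 to 1 in the non-loaded samples in TPM. Arl3 averaged 193.0 ± 4.95 CPM in the spironolactone group and 171.7 ± 12.6 CPM in the non-loaded group (SD, n = 3 each, edgeR adjusted p = 0.18). Arl2 averaged 28.19 ± 0.643 CPM in the spironolactone group and 33.55 ± 2.95 CPM in the non-loaded group (SD, n = 3 each, edgeR adjusted p = 0.172). The log2 fold changes of Arl3 and Arl2 had opposite signs, 0.17 ± 0.06 and −0.25 ± 0.09 (SE), and neither passed.

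UNC119 and PDE6D also bind other proteins. Of 9 prenylated cargo genes of PDE6D 0 were called by edgeR (2 at an unadjusted p under 0.05, and Gngt2 called by DESeq2), with a median log2 fold change of −0.0451. The catalytic subunit genes of the rod phosphodiesterase, named for their role, had log2 fold changes of −0.08 (Pde6a, edgeR adjusted p = 0.601) and −0.10 (Pde6b, adjusted p = 0.469), and Rpgr, which encodes a ciliary protein, had 0.27 ± 0.15 (SE, adjusted p = 0.404). Of 7 tested genes for other partners of UNC119 0 were called by edgeR (2 at an unadjusted p under 0.05, and 1 called by DESeq2), with a median of 0.0369. Cabp4, which encodes a calcium sensor of the photoreceptor synapse, had 450.5, 454.4 and 449.3 CPM in the spironolactone samples and 350.6, 390.4 and 422.3 CPM in the non-loaded samples. Each spironolactone sample was above each non-loaded sample, at a log2 fold change of 0.22 ± 0.06 (SE, edgeR adjusted p = 0.0911). Cabp4 passed with DESeq2 (adjusted p = 0.0357) and, in edgeR, without non-loaded replicate 3 (adjusted p = 0.0355), the highest non-loaded sample. Ctbp2, whose longer product RIBEYE builds synaptic ribbons, averaged 586.1 ± 8.39 CPM in the spironolactone group and 535.5 ± 20.9 CPM in the non-loaded group (SD, n = 3 each, edgeR adjusted p = 0.26). Lyn, a Src family kinase gene, had a log2 fold change of 0.27 ± 0.23 (SE, edgeR adjusted p = 0.634).

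Phosphorylation controls both UNC119 and phosducin. Casein kinase 2 phosphorylates UNC119 and the phosphatase calcineurin reverses this, from work in mice. Of 9 tested genes of these enzymes and of calmodulin 0 were called by edgeR or DESeq2 (2 at an unadjusted p under 0.05, median log2 fold change 0.0665). Among them Csnk2a2 had a log2 fold change of 0.22 ± 0.10, Ppp3cc 0.18 ± 0.09 (SE) and Csnk2b 0.12, at edgeR adjusted p of 0.283, 0.313 and 0.455. Of 14 genes for kinases, phosphatase subunits and 14-3-3 partners of phosducin 0 were called by edgeR or DESeq2 (1 at an unadjusted p under 0.05, median 0.00599). Camk2d was at 0.13 ± 0.06 (SE, edgeR adjusted p = 0.266), Camk2g at 0.15 (adjusted p = 0.321) and Ywhaq at −0.09 (adjusted p = 0.419). Of 11 genes of the phosducin family and the chaperonin CCT, which together assemble beta-gamma, 0 were called by edgeR or DESeq2 (1 at an unadjusted p under 0.05, median −0.0019). Pdcl3 had a log2 fold change of 0.19 ± 0.09 (SE, edgeR adjusted p = 0.296), Cct3 −0.09 (adjusted p = 0.519) and Pdcl −0.09 ± 0.07 (SE, adjusted p = 0.57). Pdc outnumbered Pdcl, its ubiquitous paralog, 80.1, 85.1 and 86.6 to 1 in the spironolactone samples and 84.1, 81.3 and 77.5 to 1 in the non-loaded samples in TPM, and the groups overlapped.

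Other proteins that move between rod compartments with light, or bind transducin there, had 8 tested genes, of which 2 fell and none rose, where 0.763% of all tested genes were called lower. Recoverin (Rcvrn), a calcium sensor that is also on the rod list, averaged 800.8 ± 38.7 CPM in the spironolactone group and 1014 ± 84.7 CPM in the non-loaded group (SD, n = 3 each). It fell by 0.34 ± 0.07 (SE) on the log2 scale (edgeR, adjusted p = 0.00872, and 0.0728 or 0.0691 without replicate 2 of the spironolactone or the non-loaded group). Cetn2, which encodes a centrin of the connecting cilium, had 60.0, 50.27 and 50.67 CPM in the spironolactone samples and 68.09, 69.78 and 66.94 CPM in the non-loaded samples. It fell by 0.35 ± 0.08 (SE) on the log2 scale (edgeR, adjusted p = 0.0231), and the call ended without spironolactone replicate 2 or 3 (adjusted p = 0.16 and 0.104) and without non-loaded replicate 1 or 2 (0.0877 and 0.0952). Sag, the rod arrestin gene, whose protein moves in the direction opposite to transducin, averaged 3577 ± 119 CPM in the spironolactone group and 3383 ± 46.1 CPM in the non-loaded group (SD, n = 3 each, log2 fold change 0.08 ± 0.06, SE, edgeR adjusted p = 0.527). Sag was the only rod marker of 14 with a positive log2 fold change. Gnb5, which forms a complex with RGS9 that turns transducin off, had a log2 fold change of −0.13 (edgeR adjusted p = 0.351), and Rgs9 itself had 0.07 ± 0.07 (SE, adjusted p = 0.652).

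Over all these lists, 5 of 148 tested genes were called, 0 higher and 5 lower (3.38%, beside 0.763% lower, 1.87% higher and 2.63% in either direction of all tested genes), and their median log2 fold change was −0.0191. Since the lists were chosen with earlier results of these data known, these counts are given as a description. The 5 called genes were Gnat1, Gnb1, Klhl21, Rcvrn and Cetn2, and Gnat1 and Rcvrn are also rod markers. Over the 18 alternatives their lowest adjusted p was 1.41e-13 for Gnat1, 3.02e-06 for Gnb1, 0.0165 for Klhl21, 5.18e-05 for Rcvrn and 0.00255 for Cetn2, and the highest was 1 for each, with the title number as a covariate. The lowest value of Gnat1 came from edgeR without a filter on low counts. Its adjusted p was 0.000705 in the main edgeR fit, 0.00256 with DESeq2 and 0.162 in edgeR with robust shrinkage.

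Among 12410 genes compared over the 6 libraries, those with the profile most like each of the 5 were found from the root-mean-square difference of log2 CPM, centred on the mean of each gene. For Klhl18 they were Plpp2 (0.0251), Gngt2 (0.0495) and PVR (0.0622), against a spread of Klhl18 itself of 0.288 (SD of log2 CPM over the 6 libraries). For Cul3 they were Senp2 (0.0146), Pitpnb (0.0202) and Immt (0.0214), and for Pde6d Frmpd1 (0.0111), Sf3b1 (0.0118) and Gtf2f1 (0.0142). For Unc119 they were Ndufb3 (0.00724), Camk2b (0.0142) and Tuba1b (0.0155), and for Pdc Megf9 (0.0146), Cnr1 (0.018) and Pcdh1 (0.0184). The spread of Cul3 was 0.119, of Pde6d 0.0734, of Unc119 0.0732 and of Pdc 0.0655, so the last 3 varied little over the libraries.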

How the data were processed

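RNA of 3 spironolactone and 3 non-loaded neuroretina samples was sequenced from KAPA stranded mRNA libraries, per the labels' protocols. FastQC, Trimmomatic, STAR 2.5.3a, RSEM 1.2.28 and rn6 are named in the submitters' processing notes, whereas the sources used here give neither the annotation nor the strand setting. Without strand, reads of overlapping genes cannot be told apart. The authors deposited RSEM gene tables with unnormalised expected counts, TPM and effective lengths, per the file headers. TPM is the authors' value, scaled within each library. All 30 expected counts of the 5 genes were whole numbers, so no reads of theirs had been shared with other genes by fractions.

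Expected counts (totals of 9996198 to 12589467 per library) were rounded, filtered by filterByExpr (13242 of 28358 genes, at least 99.9% of counts) and tested with edgeR 4.0.16 in R 4.3.3 (TMM, quasi-likelihood, two-sided, Benjamini-Hochberg over all tested genes, threshold 0.05). Alternatives used DESeq2 1.42.0, limma 3.58.1, other scalings and filters, pseudocounts of 1 and 0.1 on TPM, effective lengths, the title number and leaving out each library. The genes, lists and motifs were chosen with earlier results of these data known. Of 167 list names, 158 were matched. Named were the 5 genes, all transducin subunits, called list genes, the 3 further genes of each list with the smallest p, and the 3 genes nearest in profile to each of the 5. Rbx1, Pde6a, Pde6b and the sole gene above Klhl18 in level were named outside that rule, after their values were seen. No 2 libraries agreed within sampling noise (chi-square per gene of 4 to 16). Spironolactone replicate 1 had 4.6 and 7.13 against spironolactone replicates 2 and 3, and 4.72 against non-loaded replicate 3. The remaining pairs had 4 to 5.61 within a group and 6.67 to 16 across the groups. No column of another series was present.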

Additional observations from a re-analysis of the deposited data

How the results depend on the processing

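Klhl18 stayed lower in 17 of 18 alternatives, at −0.54 to −0.39 on leaving out a library, Cul3 and Pde6d stayed higher in all 18 (0.16 to 0.23 and 0.09 to 0.14 on leaving out a library), Unc119 stayed lower in 17 (−0.11 to −0.03), and Pdc was −0.08 to 0.00 on leaving out a library. The log2 fold change of Cul3 was 0.25 with limma on log2(TPM + 0.1). The count of 348 called genes was 602 without a filter, 100 with limma on log2(TPM + 1), 95 on log2(TPM + 0.1), 593 at a threshold of 0.1 and 111 to 621 on leaving out a library. Of the called genes 71% were higher, against 82% on log2(TPM + 1) and 83.2% on log2(TPM + 0.1). The 5 called list genes became 8 without a filter, 8 with DESeq2, 1 on either TPM scale, 9 at a threshold of 0.1 and 1 to 9 on leaving out a library.

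With the title number as covariate, which cannot be told apart from the treatment, 0 genes and 0 list genes were called, and Klhl18 was 0.078, Unc119 0.23, Cul3 0.0695, Pde6d 0.0106 and Pdc −0.12. In the same fit the sign turned for Arih1 (−0.0191), Arih2 (−0.0138), Cabp4 (−0.0423), Camk2d (−0.0789), Cct3 (0.16), Cetn2 (0.0796), Cops2 (−0.0025), Csnk2a2 (−0.0286), Csnk2b (−0.13), Cul1 (−0.0754), Cul4b (−0.0905), Cul5 (−0.26), Gnat2 (0.13), Gnb1 (0.0918), Gnb5 (0.32), Gngt2 (0.0665), Klhl29 (−0.17), Lyn (−0.0051), Pde6a (0.0575), Pde6b (0.18), Ppp3cc (−0.40), Rbx1 (−0.28), Rgs9 (−0.18) and Unc119b (0.20). Without non-loaded replicate 1, Rbx1 was −0.0212. Over the alternatives the lowest adjusted p was 0.0498 for Arih1, 0.0254 for Cabp4, 0.0296 for Cul4b, 0.0169 for Gngt2, 0.0263 for Unc119b and, with effective lengths, 0.00932 for Klhl29, and the highest was 1 for each. The cause was not tested. No paired analysis was possible because the groups share no title number. Replicates 1 to 3 follow the order of the title numbers within each group and do not mark pairs. With 3 samples a group, differences of the size seen for Unc119 and Pdc are within their spread.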
